A study of Mus musculus with 20 samples.

Results

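Colonoids are epithelial spheres grown from colonic crypts in a gel of basement membrane proteins. The genes described here are 10 genes of glycolysis and of the cellular response to low oxygen, measured by mRNA sequencing of mouse colonoids: Slc2a1, Hk2, Pfkp, Pgk1, Eno1, Ldha, Pdk1, Vegfa, Bnip3 and Egln3. They were chosen by name as a pathway list, with earlier results of these data known, so their counts beside all genes are descriptions. Every transcript listed under these symbols was summed per gene. All 10 were found among the 35240 gene symbols of the table, and all 10 were among the 13539 genes that passed the filter of a mean value of at least 1. WT colonoids came from C57BL/6 mice, and Tnfr2-/- colonoids came from mice with a whole-body disruption of Tnfrsf1b, the gene for the tumor necrosis factor receptor TNFR2. Both genotypes were grown in Matrigel with IntestiCult medium, passaged several times and filtered through a mesh before seeding. The study's methods name the supplements CHIR99021 and Y-27632 for its cultures started from single cells, and whether the sequenced cultures received them is not stated in the sources used here. The disruption was present in every cell of the Tnfr2-/- mice, so it was not limited to the epithelium. RNA from 2 mice per genotype was collected on days 1 to 3, 5 and 7 after passage (days post-passage, DPP), which gave 20 libraries in 10 groups of 2. The 5 libraries that carry 1 mouse number in a genotype are taken here as repeated samples of that animal.

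Glycolysis splits glucose into pyruvate in the cytosol, and lactate dehydrogenase can then turn pyruvate into lactate. When oxygen is scarce, prolyl hydroxylases no longer mark the alpha subunits of the hypoxia-inducible factors (HIFs) for destruction, and the stabilised factors switch on glucose transporters, glycolytic enzymes, a kinase that closes the entry of pyruvate into mitochondria, and genes for new blood vessels and for mitochondrial removal. The colonic epithelium is known for a steep oxygen gradient, since its surface faces an almost oxygen-free lumen. HIF signalling is one of several inputs to these genes, and transcript levels alone do not report oxygen.

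Values are TPM, transcript abundances that are scaled for transcript length and so allow levels of different genes to be set side by side, here also divided by a size factor per library. They are called normalised expression below, and they carry no read counts per library, so no counting error can be given. Library sums lay between 900655 and 1111080. Tnfrsf1b, the targeted gene, lay between 11.1 and 21.9 in the WT libraries and between 2.71 and 11.5 in the Tnfr2-/- libraries (log2 fold change -1.35 ± 0.167 SE over all days, limma adjusted p = 9.72e-05), and was higher in the late than in the early Tnfr2-/- libraries (log2 fold change 1.02 ± 0.181 SE, limma adjusted p = 0.001909). Epithelial markers, among them Epcam and Krt8, summed to between 11327 and 19611. The study describes fibroblasts in these cultures, and each of 8 fibroblast markers reached 0.5 in at least 1 library of every genotype and phase. Their sum lay between 2066 and 4210 in the early WT, 1216 and 3920 in the late WT, 3104 and 4626 in the early Tnfr2-/- and 3684 and 8403 in the late Tnfr2-/- libraries. Of 4 endothelial markers, Cdh5, Kdr and Tek stayed under 0.5 in every library, and of 4 immune markers Cd3e did. The immune marker sum, carried by Cd68 and Csf1r, lay between 8.53 and 20.9 in the WT libraries and between 17.3 and 48.3 in the Tnfr2-/- libraries. The 5 proliferation markers fell from the early to the late days in both genotypes. In bulk RNA, fewer cells of a type and less RNA per cell cannot be told apart. WT mouse 1 stood apart from WT mouse 2 in the late days by 6 differentiated colonocyte and goblet markers, whose sum was 1984 and 1668 at 5 and 7 DPP against 386 and 759 in WT mouse 2 and between 365 and 472 in the Tnfr2-/- mice. It was also higher in WT mouse 1 at each early day, with 792 against 375 at 1 DPP. In the late days WT mouse 1 also held less of the fibroblast markers (1216 and 1780 against 3231 and 3920 in WT mouse 2) and of 5 smooth muscle and myofibroblast markers (29.1 and 49.6 against 132 and 134). The part of these differences in the results was not tested, and fits without a WT mouse are given beside the main comparisons below. In a fit without 1 mouse, its genotype keeps 1 library per day. Calls and p-values from such fits hold no spread between the mice of that genotype.

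HIFs bind DNA at a short core written ACGTG or GCGTG. The 250 bases before the annotated start sites of the 10 genes were searched for this core on both strands, with overlapping matches counted separately. RefSeq promoter windows on build GRCm38.p6 were found for 10 of the 10 genes, 15 windows in all. At least 1 match lay in 13 of the 15 windows, against 38.6% of the 32851 promoter windows of the table, and 2.58% of those windows held at least 4 matches. The 10 genes were chosen as glycolysis and hypoxia response genes, and the windows were not matched for base composition. The contrast is therefore not a test of HIF in these cultures. The sequences below are those of Egln3, Bnip3, Vegfa and Pdk1, the 4 genes whose late rise was called in both genotypes whichever single library was left out, and of Ldha and Eno1, the 2 most abundant genes, each read 5′ to 3′ toward the start site on the gene's own strand. Capitals mark the core or its reverse complement. They belong, in order, to chr12:54203875-54204124 (minus strand), chr7:138909507-138909756 (minus), chr17:46032378-46032627 (minus), chr2:71872974-71873223 (plus), chr7:46845554-46845803 (plus) and chr4:150236458-150236707 (plus).
Egln3: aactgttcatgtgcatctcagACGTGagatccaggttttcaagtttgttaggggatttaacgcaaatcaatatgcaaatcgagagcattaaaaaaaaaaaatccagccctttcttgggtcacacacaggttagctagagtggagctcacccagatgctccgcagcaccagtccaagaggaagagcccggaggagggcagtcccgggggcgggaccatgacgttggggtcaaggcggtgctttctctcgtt
Bnip3: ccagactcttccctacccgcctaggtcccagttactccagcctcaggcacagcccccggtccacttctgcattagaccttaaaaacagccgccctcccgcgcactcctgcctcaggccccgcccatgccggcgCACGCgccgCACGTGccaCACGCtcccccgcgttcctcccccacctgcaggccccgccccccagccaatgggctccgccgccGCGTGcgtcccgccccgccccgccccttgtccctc
Vegfa: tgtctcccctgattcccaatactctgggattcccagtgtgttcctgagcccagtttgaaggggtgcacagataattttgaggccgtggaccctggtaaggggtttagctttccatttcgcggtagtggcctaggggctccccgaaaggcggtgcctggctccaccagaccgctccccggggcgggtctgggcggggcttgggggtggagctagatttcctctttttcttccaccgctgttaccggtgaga
Pdk1: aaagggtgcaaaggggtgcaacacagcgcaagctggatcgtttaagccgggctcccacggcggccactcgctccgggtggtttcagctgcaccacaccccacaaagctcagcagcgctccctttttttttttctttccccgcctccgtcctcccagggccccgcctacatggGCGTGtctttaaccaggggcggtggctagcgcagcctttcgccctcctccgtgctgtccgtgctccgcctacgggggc
Ldha: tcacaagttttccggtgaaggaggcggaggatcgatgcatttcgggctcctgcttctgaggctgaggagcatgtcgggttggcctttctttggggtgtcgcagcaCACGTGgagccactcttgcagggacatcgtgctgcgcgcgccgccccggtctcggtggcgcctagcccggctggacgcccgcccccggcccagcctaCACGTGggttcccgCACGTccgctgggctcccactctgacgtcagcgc
Eno1: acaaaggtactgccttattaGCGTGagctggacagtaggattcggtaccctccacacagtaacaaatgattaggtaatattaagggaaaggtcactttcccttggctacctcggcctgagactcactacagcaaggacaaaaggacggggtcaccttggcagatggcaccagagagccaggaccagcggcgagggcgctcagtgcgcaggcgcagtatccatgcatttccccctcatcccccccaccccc
Bnip3 and Ldha held 5 matches each, Pdk1, Eno1 and Egln3 held 1, and the Vegfa window shown held 0. Of the further windows of these genes, a second Vegfa window, at an internal start site, held 2 matches, 2 other Eno1 windows, which overlap and are counted separately here, held the same 2 matches, a second Ldha window held 1 and a second Pdk1 window held 0. A match is a description of letters, and its absence from this window says nothing of sites elsewhere.

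Glucose enters the cell through facilitated transporters, of which GLUT1 is encoded by Slc2a1 (chromosome 4, 119108711-119137983, plus strand, GRCm38). In each pair of values below, mouse 1 of the genotype comes first. In WT colonoids Slc2a1 stood at 128 and 119.5 at 1 DPP, 129.5 and 139 at 2 DPP, 110.2 and 114 at 3 DPP, 121 and 122 at 5 DPP and 185 and 134 at 7 DPP. In Tnfr2-/- colonoids it stood at 147 and 132 at 1 DPP, 142 and 145 at 2 DPP, 137 and 133 at 3 DPP, 160.0 and 177 at 5 DPP and 165 and 193 at 7 DPP. The levels moved within a narrow band, and both Tnfr2-/- libraries lay above both WT libraries on 4 of the 5 days, the exception being 7 DPP, when WT mouse 1 lay between the Tnfr2-/- mice. Slc2a1 made up at least 89.2% of the summed expression of Slc2a1 to Slc2a4 in every library.

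Hexokinase 2, encoded by Hk2 (chromosome 6, 82725025-82774454, minus strand), traps glucose by phosphorylation and can bind the outer mitochondrial membrane. Its WT values were 29.6 and 17.9 at 1 DPP, 24.1 and 29.3 at 2 DPP, 41.2 and 22.9 at 3 DPP, 45.5 and 39.3 at 5 DPP and 93.8 and 41.1 at 7 DPP. Its Tnfr2-/- values were 33.3 and 24.2 at 1 DPP, 30.8 and 30.4 at 2 DPP, 26.2 and 33.8 at 3 DPP, 64.4 and 52.2 at 5 DPP and 52.2 and 59.5 at 7 DPP. The late libraries were the higher ones in all 4 mice, with the late mean over the early mean between 1.72 and 2.20 by mouse, and WT mouse 1 at 7 DPP stood far above the rest.

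The platelet-type phosphofructokinase gene Pfkp (chromosome 13, 6579768-6648777, minus strand) encodes 1 of 3 isoforms of the enzyme that commits sugar to glycolysis. Pfkp in WT measured 63.3 and 60.3 at 1 DPP, 70.8 and 88.7 at 2 DPP, 103 and 79.2 at 3 DPP, 189 and 93.3 at 5 DPP and 201 and 106 at 7 DPP. In Tnfr2-/- it measured 88.0 and 65.9 at 1 DPP, 100.04 and 101 at 2 DPP, 114 and 123 at 3 DPP, 114 and 143 at 5 DPP and 126 and 125 at 7 DPP. WT mouse 1 went to the highest values of the series, while both late libraries of WT mouse 2 lay below all 4 late Tnfr2-/- libraries.

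Phosphoglycerate kinase, encoded by Pgk1 (chromosome X, 106187100-106203699, plus strand), makes ATP in the later part of the pathway. Pgk1 in WT colonoids reached 646 and 634 at 1 DPP, 677 and 707 at 2 DPP, 865 and 926 at 3 DPP, 892 and 807 at 5 DPP and 1261 and 718 at 7 DPP. In Tnfr2-/- colonoids it reached 617 and 605 at 1 DPP, 810.0 and 920.2 at 2 DPP, 969.9 and 1007 at 3 DPP, 1153 and 1299 at 5 DPP and 867 and 1113 at 7 DPP. All 4 mice had their lowest value at 1 DPP, both Tnfr2-/- mice peaked at 5 DPP, and the WT mice parted at 7 DPP. Pgk1-rs7, a related sequence that can share reads with Pgk1, was listed at 25.3 in the Tnfr2-/- mouse 1 library of 1 DPP and at no more than 5.54 elsewhere.

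Enolase 1, encoded by Eno1 (chromosome 4, 150236721-150248879, plus strand), catalyses the step before pyruvate kinase, and had the highest mean of the 10 genes over all libraries. Eno1 in WT was 1264 and 1072 at 1 DPP, 1513 and 1549 at 2 DPP, 1543 and 1574 at 3 DPP, 1839 and 1347 at 5 DPP and 1628 and 1312 at 7 DPP. In Tnfr2-/- it was 1495 and 1461 at 1 DPP, 1784 and 1867 at 2 DPP, 1664 and 1806 at 3 DPP, 1568 and 1765 at 5 DPP and 1386 and 1604 at 7 DPP. The lowest value was at 1 DPP in 3 mice and at 7 DPP in Tnfr2-/- mouse 1, and the late mean exceeded the early mean in 1 of 4 mice.

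The muscle-type subunit of lactate dehydrogenase, encoded by Ldha (chromosome 7, 46841475-46855627, plus strand), favours the making of lactate from pyruvate. WT colonoids held 974 and 923 at 1 DPP, 1139.8 and 1267 at 2 DPP, 1410.1 and 1368 at 3 DPP, 1665 and 1267 at 5 DPP and 2015 and 1307 at 7 DPP. Tnfr2-/- colonoids held 1232 and 1113 at 1 DPP, 1557 and 1559.7 at 2 DPP, 1551 and 1545 at 3 DPP, 1602 and 1709 at 5 DPP and 1329 and 1551 at 7 DPP. WT mouse 1 climbed at every step to the highest value, WT mouse 2 stayed between 1267 and 1368 from 2 DPP on, and the Tnfr2-/- mice stayed between 1329 and 1709 over the same days.

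Pyruvate dehydrogenase kinase 1, encoded by Pdk1 (chromosome 2, 71873224-71903858, plus strand), phosphorylates and thereby shuts the enzyme complex that feeds pyruvate into mitochondria. WT values were 10.1 and 19.0 at 1 DPP, 15.9 and 16.0 at 2 DPP, 39.3 and 40.7 at 3 DPP, 59.0 and 36.8 at 5 DPP and 94.6 and 54.4 at 7 DPP. Tnfr2-/- values were 20.9 and 21.5 at 1 DPP, 36.9 and 37.4 at 2 DPP, 50.3 and 50.7 at 3 DPP, 71.1 and 65.9 at 5 DPP and 66.8 and 60.2 at 7 DPP. Levels at 3 DPP were already 2.15 to 3.91 times those of 1 DPP in every mouse, which set Pdk1 apart from Bnip3 and Vegfa, whose levels at 3 DPP were between 0.535 and 1.75 times those of 1 DPP.

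Vegfa (chromosome 17, 46016993-46032369, minus strand) encodes the secreted growth factor of endothelial cells, whose receptor gene Kdr stayed under 0.5 in every library. In WT it measured 115 and 152 at 1 DPP, 70.9 and 101 at 2 DPP, 115 and 81.2 at 3 DPP, 149 and 133 at 5 DPP and 241 and 193 at 7 DPP. In Tnfr2-/- it measured 119.6 and 151 at 1 DPP, 115 and 101 at 2 DPP, 165 and 201 at 3 DPP, 295 and 327 at 5 DPP and 281 and 339 at 7 DPP. The 4 late Tnfr2-/- libraries, between 281 and 339, did not overlap with the 4 late WT libraries, between 133 and 241.

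Bnip3 (chromosome 7, 138890836-138909519, minus strand) encodes a protein of the outer mitochondrial membrane that marks mitochondria for autophagy. In WT it stood at 34.5 and 37.0 at 1 DPP, 23.7 and 24.99 at 2 DPP, 31.9 and 31.0 at 3 DPP, 153 and 82.1 at 5 DPP and 273 and 149 at 7 DPP. In Tnfr2-/- it stood at 63.8 and 43.8 at 1 DPP, 40.2 and 62.9 at 2 DPP, 56.7 and 76.6 at 3 DPP, 186 and 224 at 5 DPP and 214 and 266 at 7 DPP. In both genotypes all late libraries lay above all early ones, and the 6 early Tnfr2-/- libraries, between 40.2 and 76.6, lay above the 6 early WT libraries, between 23.7 and 37.0.

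Egln3 (chromosome 12, 54178981-54203860, minus strand) encodes PHD3, a prolyl hydroxylase that acts on HIF alpha subunits and is itself a HIF target. WT values were 66.9 and 71.8 at 1 DPP, 41.6 and 48.7 at 2 DPP, 102 and 68.7 at 3 DPP, 192 and 95.2 at 5 DPP and 413 and 164 at 7 DPP. Tnfr2-/- values were 49.7 and 46.7 at 1 DPP, 51.4 and 63.5 at 2 DPP, 84.9 and 94.0 at 3 DPP, 242 and 263 at 5 DPP and 279 and 316 at 7 DPP. The highest value was at 7 DPP in all 4 mice, and WT mouse 2 remained well below the other 3 mice at 5 and 7 DPP.

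**Figure D1:**
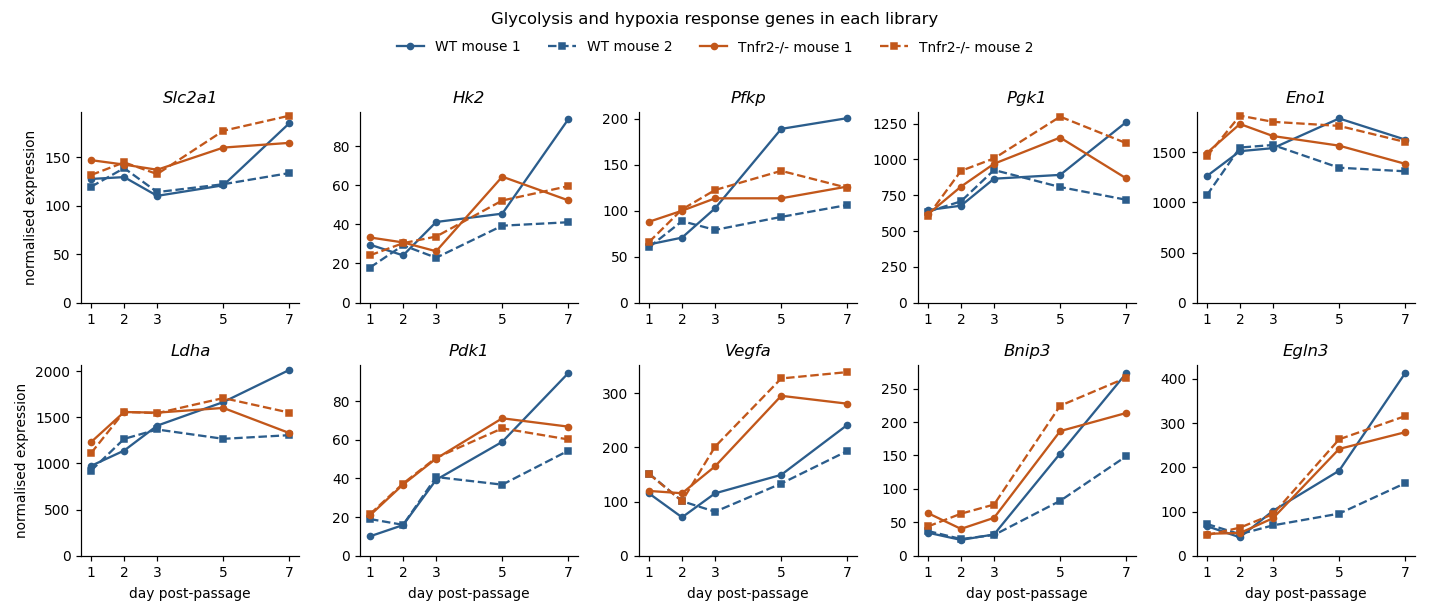
Normalised expression (size-factor-normalised TPM, linear axes from 0) of each gene against day post-passage, with 1 line per mouse, WT in blue and Tnfr2-/- in orange, mouse 1 as circles on solid lines and mouse 2 as squares on dashed lines. Bnip3 and Egln3 climbed steeply after 3 DPP in all 4 mice, Eno1 did not, and WT mouse 1 held the highest value of 8 genes at 7 DPP, the exceptions being Slc2a1 and Vegfa.

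The first comparison asked how the genes differed between the late phase of the culture (5 and 7 DPP) and the early phase (1, 2 and 3 DPP) in each genotype. In WT colonoids 7 of the 10 genes rose and none fell, where 11.6% of all genes tested were called higher. Bnip3 rose 4.86-fold, or 2.28 ± 0.21 on the log2 scale (SE, adjusted p = 8.31e-05), Egln3 by 1.54 ± 0.23 (adjusted p = 0.000873) and Pdk1 by 1.43 ± 0.18 (adjusted p = 0.000317). Smaller rises were those of Hk2 at 0.92, Pfkp at 0.86, Vegfa at 0.76 and Ldha at 0.40. Pgk1, Slc2a1 and Eno1 were not called, with differences of 0.29, 0.17 and 0.11. The median over the 10 genes was 0.81, against 0.02 over all genes tested. Of 6 differentiated colonocyte and goblet markers 3 rose in WT, with a median of 2.24, and of 8 fibroblast markers 1 rose and 1 fell. Their part in these rises was not tested. These tests were made with limma across all genes, with Benjamini-Hochberg adjustment and a threshold of 0.05, and fold changes are on the scale of log2(value + 1).

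In Tnfr2-/- colonoids 7 of the 10 genes rose and none fell, where 10.4% of all genes tested were called higher. Egln3 rose most, by a log2 fold change of 2.11 ± 0.23 (4.31-fold, adjusted p = 0.000108), followed by Bnip3 at 1.96 ± 0.21 (3.89-fold, adjusted p = 9.89e-05), Vegfa at 1.16 ± 0.14 (adjusted p = 0.000213), Pdk1 at 0.93 ± 0.18 (adjusted p = 0.00369) and Hk2 at 0.92 ± 0.23 (adjusted p = 0.013). Pgk1 rose by 0.45 and Slc2a1 by 0.32. Pfkp, Ldha and Eno1 were not called, with differences of 0.38, 0.12 and -0.09. The median over the 10 genes was 0.68, against 0.02 over all genes tested. In Tnfr2-/- 2 of 6 differentiated colonocyte and goblet markers and 3 of 8 fibroblast markers rose, with medians of 0.684 and 0.682. Their part was not tested. The 5 genes called in both genotypes were Bnip3, Egln3, Pdk1, Vegfa and Hk2, and the late mean exceeded the early mean in all 4 mice for each of them.

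The libraries separated more cleanly in the knockout. In Tnfr2-/- colonoids every late library lay above every early one for 6 genes (Slc2a1, Hk2, Pdk1, Vegfa, Bnip3 and Egln3), where this held for 9.56% of all genes tested. In WT it held for Bnip3 alone, where the share of all genes tested was 4.97%. By mouse, the ratio of the late to the early mean ran from 3.72 to 7.10 for Bnip3, from 2.06 to 4.32 for Egln3, from 1.73 to 3.53 for Pdk1, from 1.47 to 2.21 for Vegfa and from 1.72 to 2.20 for Hk2. It ran from 0.90 to 1.20 for Eno1, from 1.01 to 1.57 for Ldha, from 1.01 to 1.48 for Pgk1 and from 1.03 to 1.36 for Slc2a1. WT mouse 1 had the largest ratio for Bnip3, Egln3, Pdk1 and Hk2, and WT mouse 2 had the smallest for Bnip3, Egln3, Vegfa and Hk2.

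**Figure D2:**
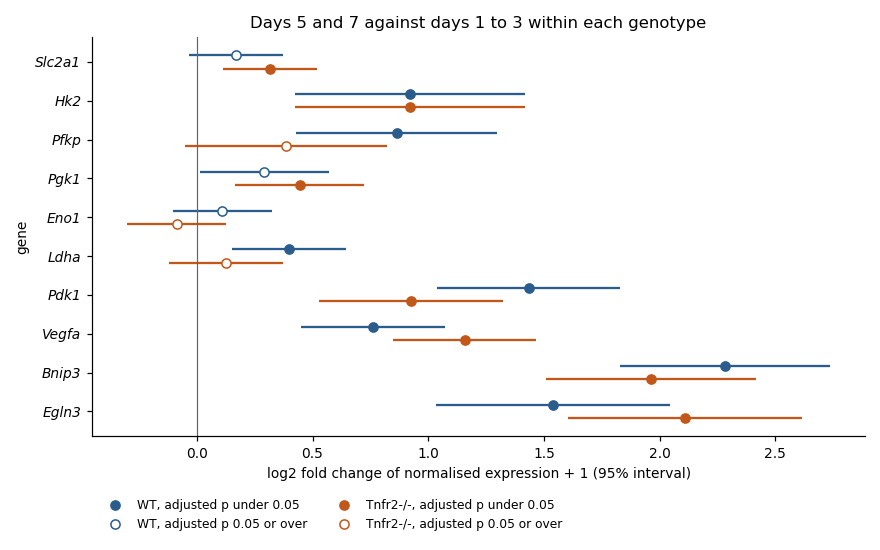
Log2 fold change of late (5 and 7 DPP) against early (1 to 3 DPP) libraries for each gene in WT (blue) and Tnfr2-/- (orange) colonoids, on the scale of log2(normalised expression + 1), with 95% confidence intervals as lines. Filled points have an adjusted p under 0.05: 7 genes in each genotype, with Bnip3 and Egln3 farthest to the right and Eno1 at 0.11 and -0.09.

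Single libraries and mice decided part of these counts. Over the 20 fits that each left out 1 library, the WT call held in 18 for Hk2, 18 for Pfkp and 15 for Ldha. These calls were lost without the WT mouse 1 library of 7 DPP and without its library of 5 DPP. Pgk1 and Slc2a1 were called in 1 fit each, that without the WT mouse 2 library of 7 DPP. Calls over all genes in single-library fits are not given here, so these shifts cannot be read as particular to the 10 genes. With WT mouse 1 left out altogether, the log2 fold change was 1.82 for Bnip3, 1.00 for Egln3, 0.92 for Pdk1 and 0.78 for Hk2. It was 0.57 for Vegfa, 0.40 for Pfkp, 0.14 for Ldha and 0.03 for Pgk1. With WT mouse 2 left out, these 8 values were 2.74, 2.08, 1.95, 1.06, 0.95, 1.32, 0.66 and 0.55 in the same order. Both fits hold no spread between WT mice, so only differences are given here. In Tnfr2-/- the call held in 18 of these 20 fits for Hk2, 13 for Pgk1 and 12 for Slc2a1. Each was lost without the library of mouse 1 at 5 DPP and without that of mouse 2 at 7 DPP. With Tnfr2-/- mouse 1 or mouse 2 left out none was called, but only 2 and 3 of all 13539 genes were called in these fits against 2755 with both mice, so these counts say nothing particular to the 10 genes. The fold changes of Bnip3 (2.02 and 1.90) and Egln3 (2.12 and 2.09) were then close to those from both mice. Bnip3, Egln3, Pdk1 and Vegfa remained called in both genotypes whichever single library was left out.

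Fibroblast markers were highest in the Tnfr2-/- libraries of 7 DPP, so the late phase was also taken as 5 DPP alone, a choice made after seeing the data. The fibroblast marker sums at 5 DPP were 3684 in Tnfr2-/- mouse 1, within the early range of that genotype, and 5057 in mouse 2, above it. Bnip3, Egln3, Pdk1, Vegfa and Pgk1 were then called in Tnfr2-/-, with fold changes of 1.85, 1.99, 0.98, 1.16 and 0.60, while Hk2 (0.95, adjusted p = 0.0657) and Slc2a1 (0.27, adjusted p = 0.19) lost the call. In WT, Bnip3, Egln3 and Pdk1 were called, and Vegfa (0.46, adjusted p = 0.146), Hk2 (0.65, adjusted p = 0.192), Pfkp (0.80, adjusted p = 0.0763) and Ldha (0.32, adjusted p = 0.197) lost the call. Over all genes 984 were called in Tnfr2-/- and 976 in WT with 5 DPP alone, against 2755 and 2724. The part of fibroblasts in these values was not tested.

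The 4 steps between days were compared over both genotypes. Bnip3 rose by 1.71 ± 0.23 (adjusted p = 0.00634), Egln3 by 1.09 ± 0.26 (adjusted p = 0.0482) and Vegfa by 0.65 ± 0.16 (adjusted p = 0.04998) from 3 to 5 DPP, 3 of the 10 genes, where 1.21% of all genes tested were called higher. The calls of Egln3 and Vegfa lay at the threshold: they were lost in 17 and 15 of the 20 fits that each left out 1 library, while Bnip3 kept its call in all 20. Fits without a WT mouse hold no spread between WT mice, so only differences are given here. Without WT mouse 1 they were 1.5 for Bnip3, 0.976 for Egln3, 0.737 for Vegfa and 0.845 for Hk2 from 3 to 5 DPP. Without WT mouse 2 they were 1.92 for Bnip3, 1.2 for Egln3 and 0.503 for Pdk1. In the fits with both WT mice none of the 10 was called between 1 and 2 DPP, where 0.761% of all genes tested were called, or between 2 and 3 DPP, where the share was 0.0% (0 of 13539, with 1449 at an unadjusted p under 0.05), or between 5 and 7 DPP, where it was 0.0222%. From 2 to 3 DPP the difference was 0.86 for Pdk1 (limma adjusted p = 0.2013) and 0.76 for Egln3 (adjusted p = 0.328). From 1 to 2 DPP Pdk1 differed by 0.48 (adjusted p = 0.3393) and Vegfa by -0.48 (adjusted p = 0.2202). From 5 to 7 DPP Bnip3 and Egln3 differed by 0.53 and 0.59, both with a 95% interval just above 0 and an adjusted p of 0.404 and 0.405. Without WT mouse 1 Pdk1 differed by 0.865 from 2 to 3 DPP. Without WT mouse 2 Pdk1 differed by 0.694 from 1 to 2 DPP and by 0.845 from 2 to 3 DPP. In the same fit Egln3 differed by 0.951 from 2 to 3 DPP and by 0.668 from 5 to 7 DPP. A missing call at these 3 steps does not show that changes were limited to the step from 3 to 5 DPP.

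The second comparison asked how loss of TNFR2 altered these genes. Over all 5 days, 3 of the 10 genes were higher in Tnfr2-/- colonoids and none was lower, where 4.51% of all genes tested were called higher. The log2 difference was 0.74 ± 0.15 for Bnip3 (SE, 1.67-fold, adjusted p = 0.00589), 0.58 ± 0.13 for Vegfa (adjusted p = 0.0111) and 0.24 ± 0.07 for Slc2a1 (1.18-fold, adjusted p = 0.0367). Pdk1 did not pass the threshold, at 0.49 ± 0.15 (adjusted p = 0.0593). The other 6 genes had differences between 0.15 and 0.20, each with an adjusted p of 0.136 or more. The median difference was 0.20, against -0.03 over all genes tested, and without WT mouse 2 Hk2 (-0.12), Pfkp (-0.05) and Egln3 (-0.06) lay below 0. Markers of other cells were also higher in Tnfr2-/- over all days: 3 of 8 fibroblast markers (Dcn by 1.65, Thy1 by 1.37 and Vim by 1.04) and both tested immune markers (Cd68 by 1.14 and Csf1r by 0.76). Of the epithelial markers Epcam (0.36) and Cdh1 (0.25) were higher, and the differentiated colonocyte marker Car1 was lower (-3.02). Their part in the result was not tested.

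These fits count the libraries of a mouse as separate samples. When libraries of a mouse were modelled as correlated, Bnip3 (adjusted p = 0.0175) and Vegfa (0.0324) kept the call and Slc2a1 (0.085) did not. On mouse means, 2 mice against 2, none of the 10 was called, the limma adjusted p being 0.277 for Bnip3, 0.209 for Vegfa and 0.423 for Slc2a1, and 7 of all 13539 genes were called, with 1522 at an unadjusted p under 0.05. Slc2a1 lost its call in 11 of the 20 fits without 1 library, and Bnip3 and Vegfa in none. Of the genes not called with all libraries, Pdk1 was called in 3 of these 20 fits and Pgk1 and Ldha in 1 each. That 1 fit left out the WT mouse 1 library of 7 DPP. Calls over all genes in these fits are not given here. With WT mouse 1 left out 5 genes were called: Bnip3 (0.91, adjusted p = 0.00494), Ldha (0.27), Eno1 (0.27), Pdk1 (0.54) and Pfkp (0.35), with 487 of all genes called in either direction against 1029 with both mice. Vegfa (0.59, adjusted p = 0.0873) and Slc2a1 (0.28, adjusted p = 0.0559) were not. With WT mouse 2 left out Bnip3 (0.58, adjusted p = 0.0492) and Vegfa (0.58, adjusted p = 0.00621) were called and Slc2a1 (0.20, adjusted p = 0.12) was not, with 1931 of all genes called. With Tnfr2-/- mouse 1 or mouse 2 left out none was called, at differences of 0.85 and 0.63 for Bnip3 and 0.67 and 0.50 for Vegfa, and 209 and 146 of all genes were called.

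In the early days Bnip3 was the 1 gene of the 10 called, at 0.87 ± 0.19 (1.83-fold, adjusted p = 0.041), where 0.768% of all genes tested were called higher. It was also the 1 gene whose 6 early Tnfr2-/- libraries all lay above the 6 early WT libraries, where this held for 0.576% of all genes tested. The call was lost without WT mouse 1 (0.85, adjusted p = 0.0905), in 15 of the 20 fits without 1 library, and when libraries of a mouse were modelled as correlated (adjusted p = 0.0757). Pdk1 differed by 0.69 ± 0.16 (limma adjusted p = 0.0635, and 0.395 on mouse means). Without WT mouse 1 it differed by 0.54 and without WT mouse 2 by 0.85, in fits that hold no spread between WT mice. Vegfa differed by 0.43 ± 0.13 (limma adjusted p = 0.158). Both Tnfr2-/- libraries exceeded both WT libraries for Pdk1 on each of the 3 early days. Of the 8 fibroblast markers Dcn alone was called higher in the early days (0.93, limma adjusted p = 0.0242), and 5 of the 8 had a difference above 0. Of the 2 immune markers tested, Cd68 was called higher (0.99, limma adjusted p = 0.0283). The part of these cells in the result was not tested.

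In the late days Vegfa was the 1 gene called, at 0.82 ± 0.16 (1.77-fold, adjusted p = 0.00922), where 3.8% of all genes tested were called higher. It was the 1 gene whose late Tnfr2-/- libraries all lay above the late WT libraries, where the share of all genes tested was 5.35%. Its call held in all 20 fits without 1 library and with correlated libraries per mouse (adjusted p = 0.0137), and was absent on mouse means (adjusted p = 0.228) and without either Tnfr2-/- mouse (differences of 0.93 and 0.72). In those fits 0, 27 and 19 of all 13539 genes were called by limma against 873, the first with 1896 at an unadjusted p under 0.05, so the lost call says nothing particular to Vegfa. The difference was 1.13 (adjusted p = 0.0242) with 5 DPP alone, when the fibroblast marker sums were 3684 and 5057 in Tnfr2-/- against 1216 and 3231 in WT. Of the single markers, the fibroblast markers Dcn (2.74) and Vim (1.69) and the immune marker Cd68 (1.35) were higher in the late Tnfr2-/- libraries, and the differentiated colonocyte marker Car1 was lower (-4.74). The part of these cells in the difference was not tested. Bnip3 and Egln3 differed by 0.55 and 0.54 without being called (adjusted p = 0.176 and 0.23), and Ldha and Eno1 by 0.01 and 0.05.

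The late differences depended on which WT mouse was used. At 7 DPP all 10 genes were higher in WT mouse 1 than in WT mouse 2, by 1.24-fold (Eno1) to 2.52-fold (Egln3), where 49.5% of all genes tested were higher in mouse 1. At 5 DPP 9 of the 10 were, with Slc2a1 the exception, where the share of all genes tested was 51.2%. The Tnfr2-/- mice differed less, by ratios between 0.90 and 1.28 at 7 DPP. With WT mouse 2 left out, Bnip3 differed between the genotypes in the late days by 0.11, Egln3 by -0.04, Pfkp by -0.62 and Vegfa by 0.70. With WT mouse 1 left out, Bnip3 differed by 0.99, Pfkp by 0.34, Egln3 by 1.12, Vegfa by 0.94, Pdk1 by 0.55 and Pgk1 by 0.53. Both fits hold no spread between WT mice, so only differences are given here. Slc2a1, Pgk1 and Egln3 were each called in 1 of the 20 fits without 1 library, that without the 7 DPP library of WT mouse 1.

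Whether the genotype difference itself changed from the early to the late days was tested by the interaction. None of the 10 genes was called, where 0.148% of all genes tested were. The estimates farthest from 0 were 0.57 ± 0.33 for Egln3 (95% interval -0.14 to 1.28), -0.51 ± 0.26 for Pdk1 (-1.07 to 0.05), -0.48 ± 0.29 for Pfkp (-1.09 to 0.14) and 0.40 ± 0.20 for Vegfa (-0.04 to 0.83). The estimate for Bnip3 was -0.32 ± 0.30 (-0.96 to 0.32). That for Egln3 was 1.11 without WT mouse 1 and 0.025 without WT mouse 2, and that for Pdk1 was 0.007 and -1.02. Such fits hold no spread between WT mice, so only estimates are given from them. The calls of Bnip3 in the early days and of Vegfa in the late days are thus not shown to be limited to those days.

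**Figure D3:**
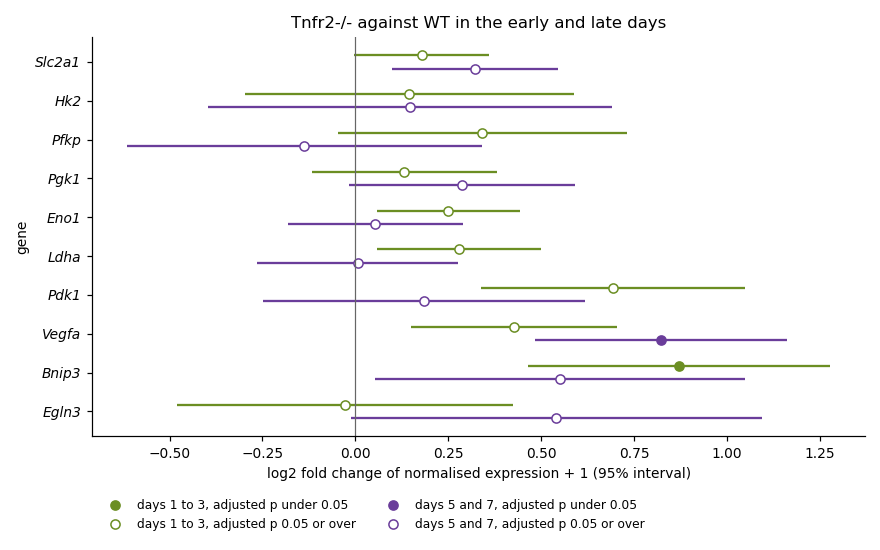
Log2 fold change of Tnfr2-/- against WT for each gene in the early (1 to 3 DPP, green) and late (5 and 7 DPP, purple) days, on the scale of log2(normalised expression + 1), with 95% confidence intervals as lines. Filled points, with an adjusted p under 0.05, are Bnip3 in the early days (0.87) and Vegfa in the late days (0.82), and the intervals of the same gene overlap between phases for all 10 genes.

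The paralogs of each gene show whether a whole enzyme family moved. Shares are of the summed normalised expression of the family, and they are descriptions without a test. Egln3 held between 41.7% and 61.3% of the HIF prolyl hydroxylase sum of Egln1, Egln2 and Egln3 in the early libraries and between 61.0% and 83.4% in the late ones, while Egln1 and Egln2 stayed between 19.2 and 49.98 in every library. Bnip3 went from between 15.1% and 30.9% of the sum with Bnip3l, its close paralog in mitochondrial autophagy, to between 28.1% and 52.8%. Bnip3l itself rose in both genotypes, by 0.59 in WT (adjusted p = 0.00512) and 0.52 in Tnfr2-/- (adjusted p = 0.00918).

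Pdk1 became the leading pyruvate dehydrogenase kinase in WT. Its share there was 33.6% and 33.9% at 1 DPP in the 2 mice and 72.4% and 64.1% at 7 DPP, while Pdk3, the most expressed isoform of the WT libraries at 1 DPP, lay between 7.68 and 38.3 over all libraries. In Tnfr2-/- colonoids the share of Pdk1 was 57.3% and 45.2% at 1 DPP and 71.9% and 67.3% at 7 DPP. That of Pdk3 there was 28.7% and 46.7% at 1 DPP, so Pdk3 was slightly ahead of Pdk1 in mouse 2. Hk2 stayed the minor hexokinase, with between 17.7% and 41.5% of the sum against 57.3% to 80.9% for Hk1. Pfkp shared its family with Pfkl, holding between 42.1% and 57.0%. Eno1 and Ldha held at least 96.9% and 89.9% of their family sums in every library.

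**Figure D4:**
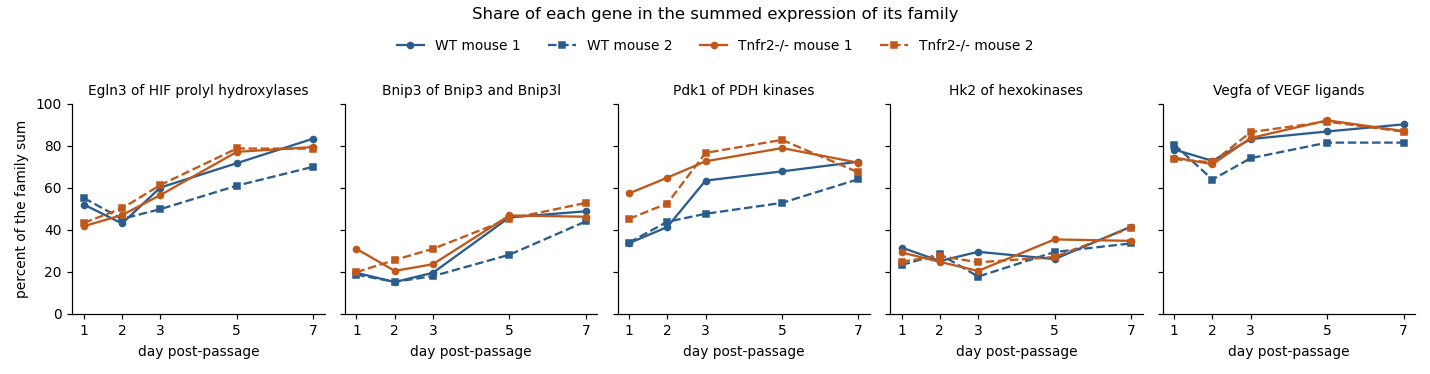
Share of Egln3, Bnip3, Pdk1, Hk2 and Vegfa in the summed normalised expression of their families (percent) against day post-passage, with 1 line per mouse, WT in blue and Tnfr2-/- in orange. The Egln3 share went from between 41.7% and 55.1% at 1 DPP to between 70.0% and 83.4% at 7 DPP, and the Hk2 share stayed under 42% in every library.

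At the level of transcripts, the principal isoform carried most of the signal in the abundant enzymes: 99.7% for Pgk1, 79.2% for Ldha and 72.0% for Eno1. Egln3 had 1 transcript. For Pdk1 the principal transcript carried 17.1%, and 2 others carried 44.9% and 33.6%. The second Bnip3 transcript, ENSMUST00000130500, averaged 20.7% of the gene in the early and 36.8% in the late libraries, with overlapping ranges (0.0% to 35.2% and 23.5% to 47.7%). Such splits rest on a model that divides shared reads, and none was tested here.

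Further genes of the same pathways were taken from lists by function, which were also chosen with earlier results of these data known. Of 21 other glycolytic enzymes and transporters tested, 11 rose and 1 fell from early to late in WT, with a median of 0.48, and 6 rose and none fell in Tnfr2-/-, with a median of 0.32. Of all genes tested, 11.6% rose and 8.52% fell in WT, and 10.4% and 9.93% did in Tnfr2-/-. Among them the aldolase gene Aldoc rose by 1.74 in WT and 1.46 in Tnfr2-/-, and the glucose transporter gene Slc2a3 rose by 1.67 in Tnfr2-/-. Ldhb, the heart-type subunit that favours the use of lactate, fell in WT by 1.35. In the late days 2 of the 21 were higher in Tnfr2-/-, Ldhb (2.06) and the lactate exporter gene Slc16a3 (1.06), and 1 was lower, where 3.8% of all genes tested were higher and 2.64% lower. Slc16a3 was called in the early days as well, at 1.38 (adjusted p = 0.00334), and over all days at 1.25 (adjusted p = 0.000177). Without WT mouse 1, 6 of the 21 rose in WT, with a median of 0.29, Aldoc among them (1.36), where 699 of all 13539 genes rose. Between genotypes in the late days 3 were then higher and 1 lower, with a median of 0.24 against 0.04 with both mice, where 400 of the 600 genes called were higher.

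Of 22 other hypoxia-induced genes, 12 rose and 1 fell in WT, and 14 rose and 2 fell in Tnfr2-/-, with medians of 0.64 and 0.81, beside the same shares of all genes. Ankrd37, a HIF target of little known function, rose by 2.04 and 2.12 in the 2 genotypes. The carbonic anhydrase gene Car9 rose by 1.31 in WT, and Adm, which encodes the vessel-dilating peptide adrenomedullin, rose by 2.73 in Tnfr2-/-. The genes that fell were Angptl4 in both genotypes (-0.93 and -0.71) and the transferrin receptor gene Tfrc in Tnfr2-/- (-0.85). Between genotypes in the late days 5 were higher and 2 lower in Tnfr2-/-, led by Adm (1.61) and P4ha1 (1.34), a collagen prolyl hydroxylase subunit, with Stc2 (-0.87) and Tfrc (-0.65) lower, where 3.8% and 2.64% of all genes tested were. Adm lay between 14.2 and 86.3 in the late Tnfr2-/- and between 6.97 and 22.5 in the late WT libraries. P4ha1 serves collagen-making cells, and the Dcn fibroblast marker was also higher in the late Tnfr2-/- libraries, by 2.74 (adjusted p = 2.16e-05). The part of fibroblasts in the differences of Adm and P4ha1 was not tested. Without WT mouse 1, where 699 of all 13539 genes rose in WT and 400 were higher between genotypes in the late days, 6 of the 22 rose in WT, with a median of 0.30 and Car9 not among them (0.74, adjusted p = 0.191), and between genotypes in the late days 6 were higher and none lower, with a median of 0.54 against 0.25 with both mice. Adm, Stc2 and Tfrc were then not called (1.73, -0.77 and -0.55).

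Of the 8 oxygen-sensing genes, Hif3a, Epas1 and Hif1a rose in both genotypes and the others were not called, where 11.6% of all genes tested rose in WT and 10.4% in Tnfr2-/-. Hif3a, whose product includes inhibitory forms, rose by 2.54 in WT and 1.48 in Tnfr2-/-, and Epas1, which encodes HIF-2 alpha, by 1.12 and 0.76. Hif1a itself rose by 0.34 and 0.46, and it was the 1 gene of the list higher in the late Tnfr2-/- libraries (0.42 ± 0.11, adjusted p = 0.0346), where 3.8% of all genes tested were higher. Of 11 genes of the pyruvate dehydrogenase branch, which holds the complex, its other kinases and phosphatases and the mitochondrial pyruvate carrier, Pdk2 rose in WT (1.58), 1 of 11 against 11.6% of all genes, and no other gene was called in any of these comparisons. Without WT mouse 1, Hif3a (1.98), Epas1 (0.86) and Pdk2 (1.17) still rose in WT and Hif1a was not called (0.35, adjusted p = 0.11).

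**Figure D5:**
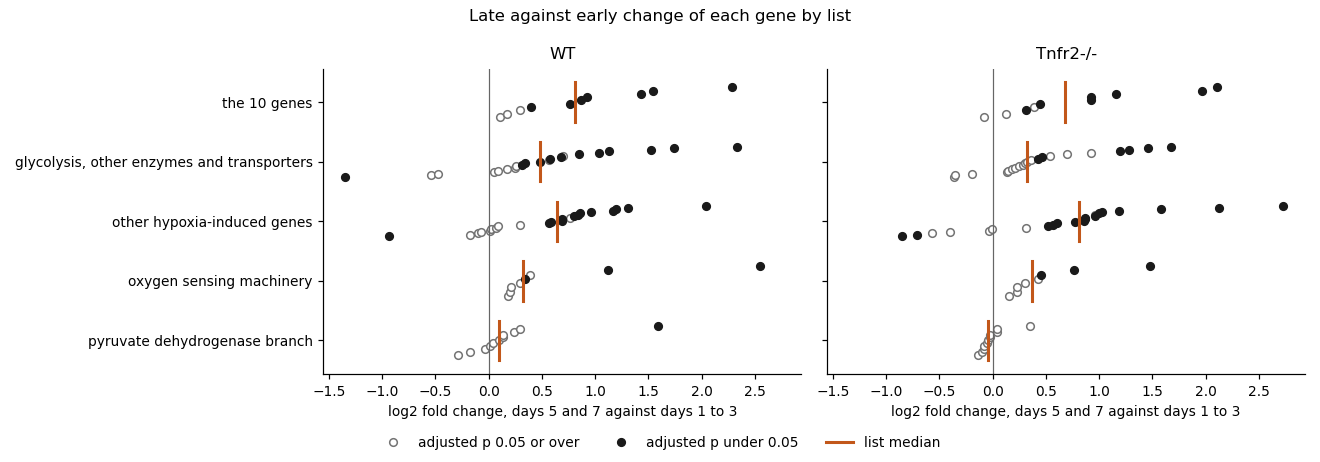
Log2 fold change of late (5 and 7 DPP) against early (1 to 3 DPP) libraries for every tested gene of the 10 genes and of 4 lists, in WT (left) and Tnfr2-/- (right), 1 point per gene, filled where the adjusted p was under 0.05, with the list median as a vertical bar. The hypoxia-induced genes had medians of 0.64 and 0.81, while the pyruvate dehydrogenase branch centred near 0 (0.10 and -0.05).

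Over the 20 libraries, the 45 pairs among the 10 genes had Pearson correlations of log2 values between 0.06 (Eno1 with Vegfa) and 0.925 (Bnip3 with Egln3), with a median of 0.71. The libraries share mice and days, so these are descriptions. Eno1 correlated with Ldha (0.80), Pfkp (0.61) and Pgk1 (0.59), and with Slc2a1, Hk2, Vegfa, Bnip3 and Egln3 below 0.3. The 8 genes outside the 10 whose profile was most like the mean standardised profile of the 10 were Mpzl2 (r = 0.96), Tpi1 (0.95), Slc39a4 (0.95), Gapdh (0.94), Mxi1 (0.94), Ly6d (0.94), Pgm1 (0.93) and Gpi1 (0.93). Tpi1, Gapdh and Gpi1 encode glycolytic enzymes, and Mxi1 is on the list of hypoxia-induced genes. Gpi1, the enzyme between hexokinase and phosphofructokinase, lay between 337 and 1087.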

How the data were processed

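Stranded mRNA libraries were sequenced single-end and, per the labels, processed with CASAVA, kallisto and sleuth on mm10. The authors deposited 1 table of values per transcript: a signal, TPM divided by a size factor per library. The study's methods give an approximate read number for all libraries alike. The values carry no read counts per library, so precision was judged from replicates alone. The authors' mean abundances on a natural log scale, test statistics (a score) and p-values and q-values were deposited in the same table and were not used.

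Of 113974 lines, 781 repeats were dropped, and 113193 transcripts were summed to 35240 gene symbols. The 199 transcripts without a gene, at most 0.0989% of a library, were left out. Values were tested as log2(value + 1) in limma 3.58.1 (R 4.3.3), using its trend option, on 13539 genes with a mean of at least 1, with Benjamini-Hochberg adjustment over all of them and a threshold of 0.05. Genotype over all days was fitted with day as a factor, and the other comparisons were contrasts of 10 group means. Libraries of a mouse are not independent, so p-values partly measure spread within mice.

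The 10 genes and the gene lists were chosen with earlier results of these data known. Named genes were the 10 genes, their paralogs, Tnfrsf1b, up to 2 called genes per list with the largest rise and 2 with the largest fall (late against early, and genotype in the late days), and the 8 genes most like the 10 in profile. The result of 1 gene that this rule names is not reported here. Loci are from GENCODE M21 (GRCm38) and promoters from RefSeq (GRCm38.p6). In simulated data, 103 of 200 genes changed by a log2 fold of 1 were recovered for genotype in the late days, and 2 of 200 at 0.5. For late against early in Tnfr2-/-, 117 and 7 were. The simulated libraries had independent noise with no mouse effect, and only 200 of 13539 genes were changed. These rates therefore need not hold for the data themselves. Per the labels there were 2 mice per genotype, and sample descriptions number the mouse, so a number was taken as 1 mouse over the days of a genotype. Deviations of its days correlated by 0.0997 to 0.307 in WT. In Tnfr2-/- they correlated by -0.0511 to 0.08, close to the range between WT and Tnfr2-/- mice of the same number (-0.0536 to 0.0761), which are not pairs, so the values do not bear out the numbers there. Alternatives covered the pseudocount (0.1 and 5), the filter, scaling, the trend, the summing by gene identifier, the mouse as a block, mouse means, and leaving out each library or mouse. The late phase as 5 DPP alone was added after seeing the data.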

Additional observations from a re-analysis of the deposited data

Results flagged for a closer look

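Hk2 in the WT mouse 1 library of 7 DPP stood at 93.8, while the other 3 late WT libraries lay at 45.5, 39.3 and 41.1. The gap to the nearest library, divided by the range of the 4, exceeded the 95% critical value of Dixon's test. It was the 1 set marked among 40 sets of libraries examined, and chance alone marks about 1 in 20. The same library held the highest 7 DPP value of 8 of the 10 genes.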

How the results depend on the processing

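Counts are of the 10 genes called. Of 22 called values recomputed 235 times, leave-outs aside, 204 kept direction and call, 31 lost the call and 0 changed direction. On mouse means, 2 against 2, 0 were called for genotype over all days, in the early and in the late days, where limma called 7, 3 and 0 of all 13539 genes, with 1522, 1095 and 1896 at an unadjusted p under 0.05. For genotype in the early days 0 were called with a pseudocount of 5, with no filter and with no trend. Over all genes 160, 180 and 145 were called there, against 162 in the main fit. From 3 to 5 DPP 1 was called with no filter and with no trend, where 187 and 131 of all genes were, against 295. In WT, late against early, 3 were called with 5 DPP alone, where 976 of all genes were, against 2724. With the replicate block, the mouse as a correlated block, the early genotype count was 0, where 110 of all genes were called against 162. The count over all days was 2, where 545 of all genes were called against 1029. The block moved no other count of calls by over 1.5 times.

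Leaving out a library or mouse gave 0 to 6 calls for genotype over all days. It gave 0 to 2 in the early and 0 to 4 in the late days. It gave 0 to 1 for the interaction, 4 to 9 for late against early in WT and 0 to 8 in Tnfr2-/-. For the 4 steps between days it gave 0 to 1, 0 to 2, 0 to 4 and 0 to 1. Without a mouse, calls over all genes moved widely too, as given above for genotype over all days. Such fits hold no spread between the mice of that genotype. Calls over all genes in single-library fits are not given here. The ranges therefore cannot be read as particular to the glycolysis and hypoxia response genes.

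Some differences that were not called changed sign. In the late days Eno1 differed between genotypes by -0.024 and Ldha by -0.072 with libraries scaled to one sum, and by -0.075 and -0.119 after quantile normalisation. Slc2a1 in WT, late against early, differed by -0.015 with 5 DPP alone. Leave-outs spanned, for genotype over all days, -0.116 to 0.408 for Hk2, -0.054 to 0.354 for Pfkp and -0.057 to 0.456 for Egln3. In the early days they spanned -0.062 to 0.352 for Hk2 and -0.121 to 0.064 for Egln3. In the late days they spanned -0.198 to 0.49 for Hk2, -0.618 to 0.344 for Pfkp, -0.136 to 0.244 for Eno1, -0.249 to 0.26 for Ldha, -0.178 to 0.548 for Pdk1 and -0.043 to 1.124 for Egln3. The interaction spanned -1.024 to 0.007 for Pdk1 and -0.783 to 0.142 for Bnip3, and Eno1 in WT, late against early, -0.052 to 0.271. The cause was not tested. The lack of read counts per library and 2 mice per genotype limit all values.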
